A study of Mus musculus with 6 samples.

Results

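The genes described here carry peptides to the cell surface on MHC class I molecules. The 10 names were chosen for their place in that pathway: the peptide transporter subunits Tap1 and Tap2, the loading factor Tapbp, the light chain B2m, the heavy chains H2-K1 and H2-D1, the immunoproteasome subunits Psmb8, Psmb9 and Psmb10, and the transactivator Nlrc5. Of these 10, 9 have an entry of that name among the 41972 entries of the deposited count table, and all 9 passed the filter on low counts. H2-D1 has no entry of that name. A locus assembled from the reads, whose deposited description names the H2-D1 alpha chain, is described beside the 9 as the H2-D1 locus and enters none of their counts.

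RNA was measured in macrophages grown from the marrow of wild-type male C57BL/6 mice aged 6 weeks. Marrow cells were grown for 6 days with 20% serum and 30% medium conditioned by L-929 cells, which supplies M-CSF, and the adherent cells were then plated in DMEM. One group received EVs (extracellular vesicles) shed by Aspergillus flavus, a mould, of strain LD-F1, another received EVs of the strain labelled LD-F1_b, each at 20 µg per well for 6 h, and the controls received PBS for the same 6 h. The sources used here do not say what sets LD-F1_b apart from LD-F1. Each group holds 2 libraries, which the series' design text calls biological replicates, without saying whether they came from separate mice, so p-values measure the spread between these libraries only.

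Class I molecules display fragments of a cell's own proteins to CD8+ T cells. The proteasome cuts proteins into peptides, and in immune cells or after interferon its catalytic beta subunits are exchanged for Psmb8, Psmb9 and Psmb10. The Tap1-Tap2 pump carries the peptides into the endoplasmic reticulum, where tapasin (Tapbp) helps load them onto a heavy chain paired with beta-2-microglobulin (B2m). Transcription of these genes is known to be driven by interferon-responsive factors, by NF-kB and by Nlrc5, which acts through a conserved module of class I promoters of which the Y box is a part.

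Promoter windows of 300 bases, from 250 before to 50 after the transcript start, were available from RefSeq on GRCm38.p6 for 8 of the 10 names, and 4 are printed because they hold the heavy and light chains and the start region that Tap1 shares with Psmb9. Capitals mark matches to the motifs searched on both strands: the interferon-stimulated response element (GAAA and GAAA with 2 bases between them), the gamma-activated site (TTC and GAA with 3 bases between them), the kB site (GGGA and CC with 4 bases between them) and the Y box GATTGG, read as CCAATC on the other strand. The windows are B2m at chr2:122147437-122147736 on the plus strand, H2-K1 at chr17:34000284-34000583 on the minus strand, H2-D1 at chr17:35262844-35263143 on the plus strand and Tap1 at chr17:34187306-34187605 on the plus strand.
B2m: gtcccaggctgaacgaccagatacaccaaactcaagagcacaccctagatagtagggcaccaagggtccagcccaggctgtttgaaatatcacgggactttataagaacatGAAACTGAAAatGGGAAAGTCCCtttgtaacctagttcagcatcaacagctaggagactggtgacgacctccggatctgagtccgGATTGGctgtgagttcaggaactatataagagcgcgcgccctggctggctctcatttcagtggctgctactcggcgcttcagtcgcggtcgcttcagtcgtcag
H2-K1: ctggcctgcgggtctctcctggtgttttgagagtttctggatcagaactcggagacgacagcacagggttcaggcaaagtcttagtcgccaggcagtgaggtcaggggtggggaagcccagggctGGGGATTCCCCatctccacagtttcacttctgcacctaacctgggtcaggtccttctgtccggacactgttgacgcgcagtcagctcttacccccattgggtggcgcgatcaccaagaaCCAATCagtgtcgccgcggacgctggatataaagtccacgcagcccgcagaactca
H2-D1: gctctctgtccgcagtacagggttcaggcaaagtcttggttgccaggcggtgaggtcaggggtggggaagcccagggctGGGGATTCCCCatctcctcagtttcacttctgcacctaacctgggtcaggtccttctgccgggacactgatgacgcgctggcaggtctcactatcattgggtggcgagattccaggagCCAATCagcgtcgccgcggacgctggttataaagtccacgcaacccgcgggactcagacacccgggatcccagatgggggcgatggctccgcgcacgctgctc
Tap1: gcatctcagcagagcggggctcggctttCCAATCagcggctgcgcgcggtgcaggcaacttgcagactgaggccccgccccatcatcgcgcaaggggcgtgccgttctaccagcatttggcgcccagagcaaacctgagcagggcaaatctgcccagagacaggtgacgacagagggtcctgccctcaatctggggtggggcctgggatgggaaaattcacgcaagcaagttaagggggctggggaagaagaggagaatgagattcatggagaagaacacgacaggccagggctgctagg
The kB match was found in 3 of the 8 windows, B2m, H2-K1 and H2-D1, and in 20.73% of all 32851 promoters. In H2-K1 and H2-D1 it reads GGGATTCCCC in the forward direction, and each kB match overlaps a match on the opposite strand. The letters searched for the interferon-stimulated response element matched in B2m alone among the 8, at position -139 from the start (GAAACTGAAA), against 3.443% of all promoters. Only these exact letters were counted, so a response element that departs from them would not be marked in any window, those of H2-K1 and H2-D1 included. The Y box letters GATTGG were matched in 5 of 8, Tap1, Psmb9, B2m, H2-K1 and H2-D1 (16.11% of all promoters). Whether a match is the Y box of the Nlrc5 module was not tested, and a Y box with other letters would not be marked. The H2-K1 and H2-D1 windows also hold attggg in small letters, preceded by c and so not matched. The gamma-activated site was matched in Psmb8 (TTCCCAGAA at -97, 8.298% of all). In RefSeq, Tap1 and Psmb9 are transcribed away from each other from starts 226 bases apart, and their GATTGG match is one and the same. The deposited positions differ from this and have the genes overlap by 212 bases. The windows of Tapbp and Psmb10 held none of these letters, which says nothing of the factors themselves.

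Total counts were 13722215 to 15277997 per library, and 3 counts, taken as the floor, were worth 0.189 to 0.225 CPM, the unit of counts divided by the TMM-scaled library size. The libraries of a group correlated at r = 0.9842 (LD-F1), 0.9885 (LD-F1_b) and 0.9910 (PBS) in log2 CPM across genes, which are not independent replicates. The LD-F1 libraries stood furthest apart, and their difference followed gene length: Spearman's rho between length and the log2 difference of replicate 1 from replicate 2 was 0.481 over 9661 genes, against 0.195 in LD-F1_b and 0.00796 in PBS. Macrophage markers were high in all 6 libraries, with 16062 to 20579 counts of Csf1r and 5944 to 6463 of Adgre1, while Itgam (0 to 4) and Mertk (1 to 10) were near 0. The summed CPM of the 7 macrophage markers present was 2150 to 2380 in LD-F1, 2503 to 2560 in LD-F1_b and 2695 to 2719 in PBS. The 6 dendritic cell markers present summed to 8.57 to 8.74, 6.09 to 7.08 and 3.01 to 3.40 on that scale, with Ccr7 at 0 throughout. Xcr1 had 103 and 118 counts in LD-F1, 69 and 59 in LD-F1_b and 20 and 18 in PBS. Zbtb46 did not share that order, at 9 and 5, 15 and 8, and 19 and 11 counts. S100a9, Ly6g, Cd3e, Ms4a1 and Cpa3, which mark neutrophils, T cells, B cells and mast cells, were at 0 in every library, but other markers of the same lists were not: Csf3r had 24 to 36 counts, S100a8 3 to 13, Cd79a 0 to 7 and Cd79b 0 to 4.

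In the PBS macrophages the class I genes spanned a wide range of levels per length. The length is the one deposited for each gene, and any order between genes depends on it. B2m stood at 702 CPM per kilobase of gene length, H2-K1 at 217, Tapbp at 38.4, Psmb10 at 30.4 and Psmb8 at 22.3 (means of 2 libraries). The low end held Nlrc5 at 7.06, Tap2 at 7.05, Tap1 at 5.69 and Psmb9 at 3.20 CPM per kilobase, where Nlrc5 and Tap2 could not be ordered because their libraries overlapped. The order of the upper 5 was the same in all 3 groups. Below them Tap1 changed place: in LD-F1 it came before Tap2 and Nlrc5, at 10.6 against 8.27 and 7.37 CPM per kilobase, and its libraries lay above theirs.

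**Figure D1:**
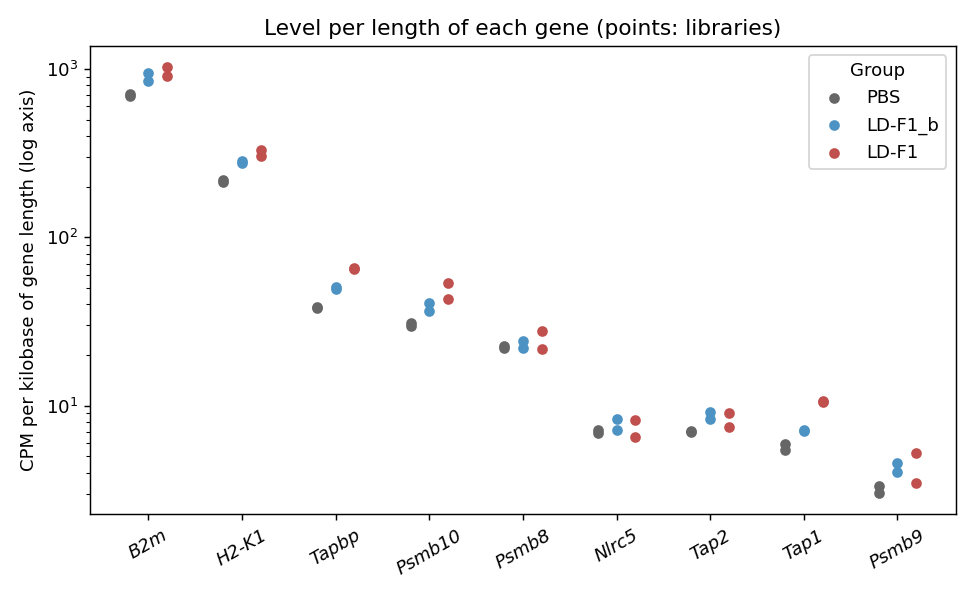
Level of each of the 9 genes per kilobase of gene length (vertical axis, CPM per kilobase, logarithmic) in the 6 libraries, coloured by group and ordered by the PBS mean. B2m and H2-K1 lie far above the rest, and Tap1 moves from below Nlrc5 and Tap2 in PBS to above them in LD-F1.

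Against PBS, 5 of the 9 genes rose in macrophages given LD-F1 EVs: Tap1, Tapbp, Psmb10, H2-K1 and B2m, by 1.38-fold to 1.86-fold. A gene was called at an adjusted p under 0.05 by edgeR's quasi-likelihood test with Benjamini-Hochberg adjustment over all 12740 genes tested, and 11.4% of those genes were called higher and 9.87% lower in this comparison (21.2% in all). The other 4, Psmb9, Tap2, Psmb8 and Nlrc5, did not pass. With LD-F1_b EVs 3 of the 9 rose, Tapbp, H2-K1 and B2m, by 1.28-fold to 1.31-fold, against 6.44% of all genes called higher and 4.54% lower (11.0% in all). The median log2 fold change over the 9 was 0.47 with LD-F1 and 0.35 with LD-F1_b, beside 0.0057 and 0.0055 over all tested genes. The 2 EV comparisons share their PBS libraries. Since RNA was pooled from whole cultures, more cells expressing a gene and more RNA per cell cannot be told apart.

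In each EV comparison the 2 EV libraries lay above the 2 PBS libraries for 7 of the 9 genes, against 29.9% of all tested genes with LD-F1 and 30.4% with LD-F1_b. The exceptions were Psmb8 and Nlrc5 in both. Fitted log2 fold changes were above 0 for all 9 genes in both comparisons, from 0.06 (Nlrc5) to 0.90 (Tap1) with LD-F1 and from 0.06 (Psmb8) to 0.43 (Psmb9) with LD-F1_b, but the sign for Nlrc5 with LD-F1 and for Psmb8 with LD-F1_b turned when library totals replaced the TMM factors.

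**Figure D2:**
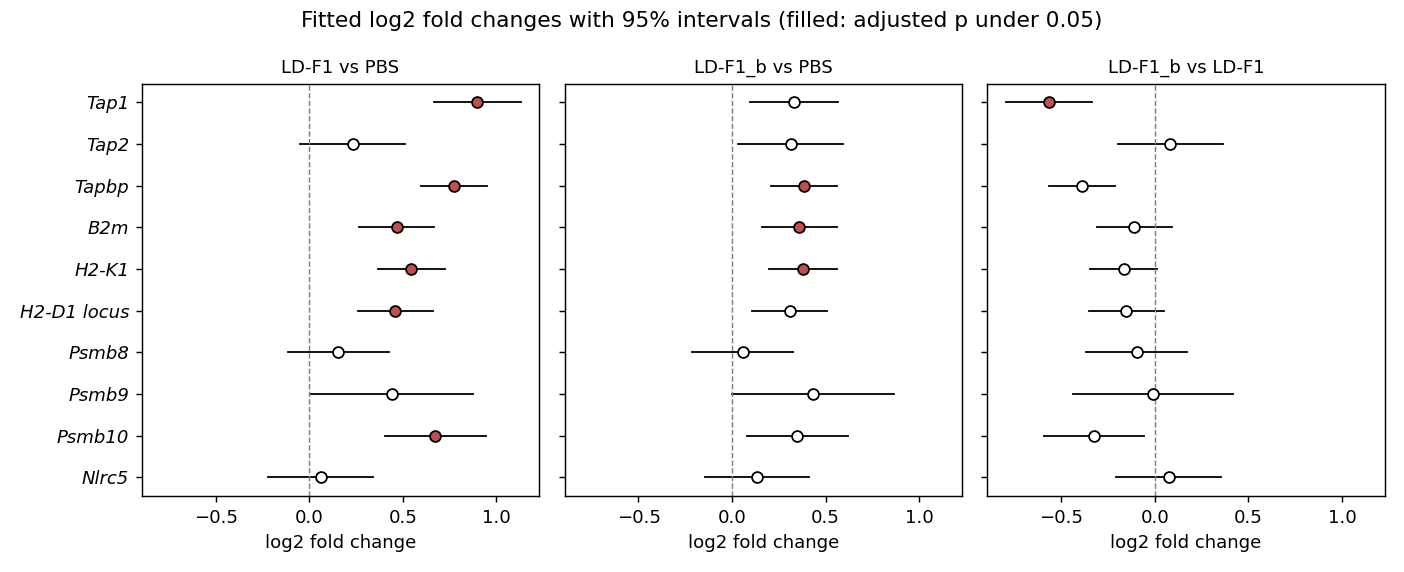
Fitted log2 fold changes (horizontal axis) of the 9 genes and the H2-D1 locus in the 3 comparisons, with 95% intervals from the edgeR fit; filled points passed at an adjusted p under 0.05. The filled points are Tap1, Tapbp, B2m, H2-K1, Psmb10 and the H2-D1 locus for LD-F1 against PBS, Tapbp, B2m and H2-K1 for LD-F1_b against PBS, and Tap1 alone between the EVs.

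Among the transport and loading genes Tap1, Tap2 and Tapbp, Tap1, one chain of the peptide pump (chromosome 17, 35480414 to 35491366, plus strand, in the deposited positions, whose gene identifiers are those of the C57BL/6NJ strain), had the largest fold change with LD-F1. Its level was 58.8 and 57.3 CPM in the LD-F1 libraries, 39.6 and 38.8 in LD-F1_b and 32.6 and 29.7 in PBS. The 3 groups did not overlap, and LD-F1_b lay between the others. Tap1 was 1.86-fold higher with LD-F1 than with PBS (95% interval 1.59 to 2.19; log2 0.90 ± 0.11 SE, adjusted p = 9.07e-05), and this passed under all 13 alternative settings. With LD-F1_b it was 1.26-fold higher (1.07 to 1.48, adjusted p = 0.0744), which missed the threshold. Without either LD-F1 library, whose spread enters the shared fit, it passed at a log2 value of 0.33. More genes of the whole table passed there too. Tap1 and Psmb9 overlap by 212 bases on opposite strands, and reads there cannot be assigned to 1 of them because the sources used here do not give the strand setting of the counting.

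Tap2, the other chain of the pump (chromosome 17, 35500069 to 35514288, plus strand), stood at 28.3 and 34.3 CPM in LD-F1, 31.6 and 34.6 in LD-F1_b and 26.9 and 26.4 in PBS. All 4 EV libraries were above the PBS libraries, and the LD-F1 libraries differed from each other by more than the lower of them differed from PBS. The fitted difference was 0.23 ± 0.13 on the log2 scale with LD-F1 (adjusted p = 0.237) and 0.31 ± 0.13 with LD-F1_b (adjusted p = 0.153). Without LD-F1 replicate 1 the LD-F1 value was 0.36 and passed (adjusted p = 0.0345), and the LD-F1_b value passed without either LD-F1 library (0.0389 and 0.0362). The ratio of Tap1 to Tap2, both per length, was 1.44 and 1.15 in LD-F1, 0.863 and 0.773 in LD-F1_b and 0.836 and 0.778 in PBS. By the deposited lengths, only the LD-F1 libraries had more Tap1 than Tap2 per length.

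Tapbp encodes tapasin, which bridges the pump and the class I heavy chain (chromosome 17, 35122040 to 35131950, plus strand). It was measured at 213 and 211 CPM in LD-F1, 161 and 163 in LD-F1_b and 125 and 123 in PBS. Replicates lay within a few CPM of each other, and the groups were clearly apart, with LD-F1_b in the middle. Tapbp rose 1.71-fold with LD-F1 (95% interval 1.51 to 1.93; log2 0.78 ± 0.08, adjusted p = 3.3e-05), under all 13 alternatives. The rise with LD-F1_b was 1.31-fold (1.16 to 1.48; adjusted p = 0.00926).

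B2m, the light chain that every classical class I molecule needs (chromosome 2, 129195593 to 129200990, plus strand), stood at 786 and 883 CPM in LD-F1, 816 and 732 in LD-F1_b and 611 and 595 in PBS. The EV libraries overlapped each other and lay above PBS. B2m was 1.38-fold higher with LD-F1 (95% interval 1.20 to 1.59; adjusted p = 0.00314) and 1.28-fold higher with LD-F1_b (1.12 to 1.47; adjusted p = 0.0254). Without PBS replicate 2 the LD-F1 difference was 0.45 on the log2 scale and missed the threshold (adjusted p = 0.0622), and with library totals the LD-F1_b difference was 0.29 and missed it (0.0596).

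H2-K1, a classical heavy chain (chromosome 17, 35236550 to 35247973, minus strand), was at 790 and 859 CPM in LD-F1, 727 and 742 in LD-F1_b and 559 and 571 in PBS. Its 3 groups did not overlap. The rise was 1.46-fold with LD-F1 (95% interval 1.29 to 1.65; adjusted p = 0.000554), and with LD-F1_b it was 0.38 ± 0.08 on the log2 scale (interval of the fold 1.15 to 1.47; adjusted p = 0.0113). Class I heavy chain genes are close copies of each other, and the sources used here do not say how reads that fit several of them were counted, so these levels are uncertain. The H2-D1 locus (chromosome 17, 36772436 to 36779310, plus strand) held 352 and 413 CPM in LD-F1, 338 and 350 in LD-F1_b and 279 and 277 in PBS. It was 1.38-fold higher with LD-F1 (adjusted p = 0.00367; 0.059 without PBS replicate 1 and 0.0616 without PBS replicate 2) and 1.24-fold with LD-F1_b (adjusted p = 0.0524; called without LD-F1 replicate 1 or 2, at 0.000284 and 0.00021).

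Per length, the ratio of H2-K1 to B2m was 0.331 and 0.321 in LD-F1, 0.294 and 0.334 in LD-F1_b and 0.301 and 0.316 in PBS, and that of the H2-D1 locus to B2m was 0.191 and 0.199, 0.176 and 0.204, and 0.194 and 0.198. For the H2-D1 locus the ratios of all 3 groups overlapped. For H2-K1 the LD-F1_b ratios overlapped those of both other groups, and the LD-F1 ratios lay just above the PBS ratios.

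The 3 rises with LD-F1_b (Tapbp, H2-K1 and B2m) depended on having every library of that comparison. They passed without either LD-F1 library, but all were lost when a library of LD-F1_b or of PBS was left out. Such a fit leaves a group with 1 library assumed to vary like the others, and far fewer genes of the whole table passed in it too. The log2 fold changes of the 3 genes stayed between 0.28 and 0.43. Fitted on the LD-F1_b and PBS libraries alone, 7 of the 9 genes passed, the 3 above with Tap1, Tap2, Psmb9 and Psmb10. More of all genes passed there as well, 3098 of 12514 tested, against 1398 of 12740 with all 6 libraries. The same rise over the whole table was seen without either LD-F1 library, so a pass there is not particular to the genes described here.

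**Figure D3:**
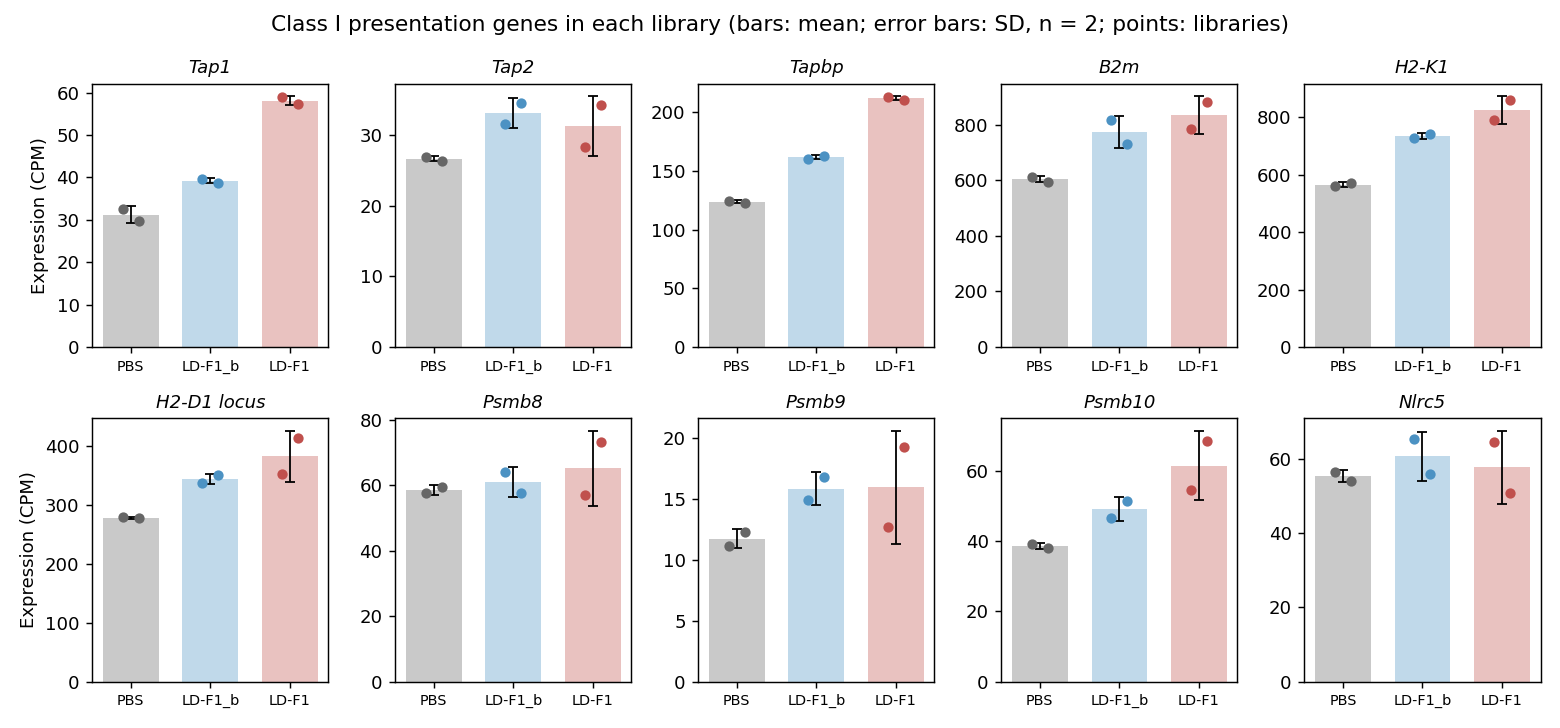
Expression in CPM (vertical axes, from 0) of the 9 genes and the H2-D1 locus in the 2 libraries of each group (points), with the group mean (bar) and SD (error bar). Tap1 and Tapbp separate the 3 groups, whereas Psmb8 and Nlrc5 overlap across them and Psmb9 is spread widely between the LD-F1 libraries.

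Of the immunoproteasome subunits, Psmb10 rose with LD-F1 and the other two did not pass. Psmb10 replaces the trypsin-like subunit Psmb7 (chromosome 8, 112232507 to 112235171, minus strand), and was at 54.5 and 68.5 CPM in LD-F1, 46.7 and 51.5 in LD-F1_b and 39.1 and 38.0 in PBS. The groups did not overlap. It was 1.59-fold higher with LD-F1 (95% interval 1.32 to 1.92; adjusted p = 0.00208), under all 13 alternatives, and 1.27-fold higher with LD-F1_b (1.06 to 1.54; adjusted p = 0.101), a value that passed with either LD-F1 library left out (0.00841 and 0.00764).

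Psmb9, which replaces the caspase-like subunit Psmb6 (chromosome 17, 35474849 to 35480625, minus strand), was the lowest of the 9 genes per length. Its libraries held 12.7 and 19.2 CPM in LD-F1, 14.9 and 16.8 in LD-F1_b and 11.2 and 12.3 in PBS. The LD-F1 replicates enclosed the LD-F1_b values, and replicate 1 lay barely above PBS. The fitted difference from PBS was 0.44 ± 0.20 (log2) with LD-F1 (adjusted p = 0.142) and 0.43 ± 0.20 with LD-F1_b (adjusted p = 0.202). Without LD-F1 replicate 1 the LD-F1 difference was 0.71 and passed (adjusted p = 0.00389). The LD-F1_b difference passed without either LD-F1 library (0.0439 and 0.0463).

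Psmb8, which replaces the chymotrypsin-like subunit Psmb5 (chromosome 17, 35491856 to 35498447, plus strand), stood at 57.1 and 73.3 CPM in LD-F1, 64.2 and 57.8 in LD-F1_b and 57.6 and 59.7 in PBS. The EV libraries overlapped the controls. The 95% interval of the fold was 0.923 to 1.34 with LD-F1 and 0.863 to 1.26 with LD-F1_b, so changes of that size were not detectable here (adjusted p = 0.422 and 0.826). The LD-F1 value was called without LD-F1 replicate 1 (log2 0.32, adjusted p = 0.0146) and fell to -0.04 without LD-F1 replicate 2.

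The inducible subunits were set against the standard subunits that they replace, per length and without a test. Psmb10 to Psmb7 stood at 1.21 and 1.36 in LD-F1, 0.991 and 1.13 in LD-F1_b and 1.02 and 0.948 in PBS. The LD-F1 libraries were above all others. Psmb9 to Psmb6 was 0.0273 and 0.0345 in LD-F1, 0.0367 and 0.0397 in LD-F1_b and 0.0326 and 0.0371 in PBS. The LD-F1_b ratios lay above the LD-F1 ratios, and the PBS ratios overlapped both. Psmb5 has no entry of that name in the table, so no ratio was formed for Psmb8.

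Nlrc5, the transactivator of class I genes (chromosome 8, 99392722 to 99451285, plus strand), was at 64.6 and 50.7 CPM in LD-F1, 65.3 and 56.0 in LD-F1_b and 56.4 and 54.1 in PBS. The libraries of all groups overlapped, and the LD-F1 replicates enclosed the controls. The fold had a 95% interval of 0.860 to 1.27 with LD-F1 (adjusted p = 0.787) and 0.905 to 1.33 with LD-F1_b (adjusted p = 0.572). The sign of the LD-F1 value turned without LD-F1 replicate 1 (-0.13). Nlrc5 passed under none of the 13 alternatives in either EV comparison.

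The spread between the LD-F1 libraries was not shared evenly by these genes. Replicate 1 lay below replicate 2 by a log2 difference of -0.60 for Psmb9, -0.36 for Psmb8, -0.33 for Psmb10 and -0.28 for Tap2, and above it by 0.35 for Nlrc5, the longest of the 9. Tap1 (0.037) and Tapbp (0.017) hardly differed between the replicates. Tap2, Psmb8 and Psmb9, which passed only without LD-F1 replicate 1, were all lower in that library than in replicate 2. That fit leaves LD-F1 with 1 library, and more genes of the whole table passed in it too. Passing there is therefore not particular to these genes. With each library's trend on gene length taken out, the same number of genes, 5, passed with LD-F1, and whether length bears on the values of Psmb8, Psmb9 and Tap2 was not tested.

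**Figure D4:**
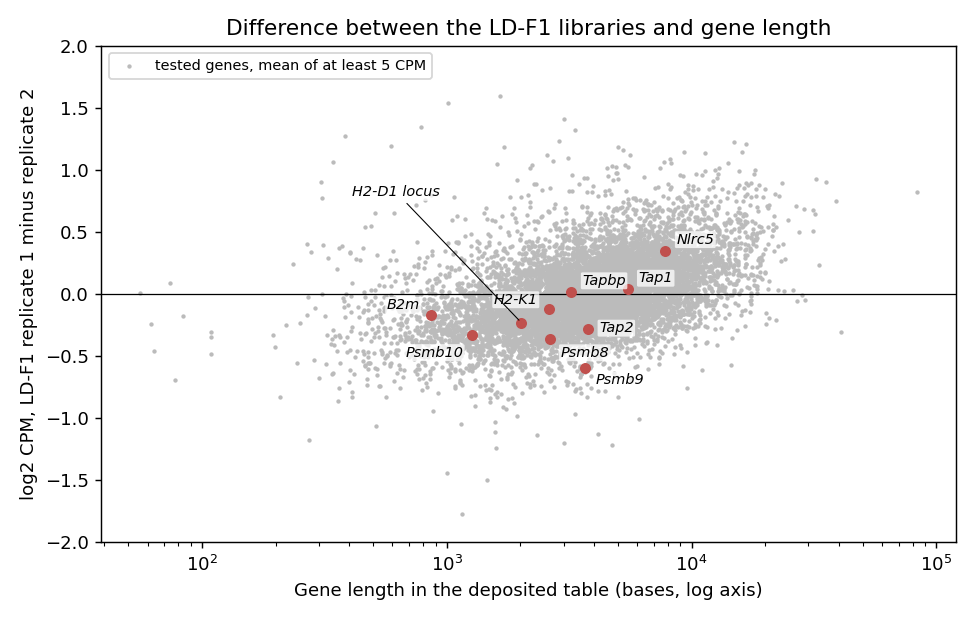
Difference between the LD-F1 libraries (vertical axis, log2 CPM of replicate 1 minus replicate 2) against gene length (horizontal axis, bases, logarithmic) for tested genes with a mean of at least 5 CPM (grey) and for the class I genes (red). The cloud slopes upward with length; Psmb9 lies lowest among the class I genes at -0.60 and Nlrc5 highest at 0.35.

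Set directly against each other, the EVs of the 2 strains differed in 1 of the 9 genes. Tap1 was lower with LD-F1_b than with LD-F1, by -0.57 ± 0.11 on the log2 scale (0.674-fold, 95% interval 0.575 to 0.791; adjusted p = 0.0413), where 0.408% of all tested genes were called lower and 0.424%, 54 genes, were called at all. The call passed in 6 of the 13 alternatives, with a log2 value of -0.62 to -0.54 and an adjusted p of 0.00135 to 0.558 over the 13. It was lost with the replicate number as a block (adjusted p = 0.0584), with library totals (0.0619) and without the PBS group (0.116). Leaving out either PBS library also lost the call, at a log2 value of -0.57 each time. So did leaving out either LD-F1_b library, at -0.58 and -0.55, where almost no gene of the whole table passed. The LD-F1_b libraries lay below the LD-F1 libraries for 4 of the 9 genes, Tap1, Tapbp, Psmb10 and H2-K1, against 17.0% of all genes.

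Tapbp was 0.763-fold as high with LD-F1_b as with LD-F1 (95% interval 0.676 to 0.862; adjusted p = 0.0675), which missed the threshold but passed in 5 of the 13 alternatives, DESeq2 (0.0251), no filter (0.0131), the length trend (0.0168) and without LD-F1 replicate 1 (0.00162) or 2 (0.00204). Psmb10 was 0.799-fold as high (0.664 to 0.962; adjusted p = 0.461). For the other 6 genes the interval of the fold included 1, from H2-K1 (0.787 to 1.01) to Tap2 (0.872 to 1.29). The widest interval belonged to Psmb9, 0.738 to 1.33. An adjusted p above the threshold does not show that these genes respond alike to the EVs of both strains.

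The 7 further lists, which take in regulators and MHC class II presentation, held 64 tested genes. With LD-F1 28 rose and 1 fell, against 11.4% of all tested genes called higher and 9.87% lower. With LD-F1_b 12 rose and 1 fell, against 6.44% and 4.54% of all. Between the EVs 2 were lower with LD-F1_b than with LD-F1, against 0.408% of all. Of 7 chaperones of peptide loading tested, 5 rose with LD-F1 (median log2 fold change of the 7 0.53) and 4 with LD-F1_b (0.40). Hspa5 (BiP), a general chaperone of the endoplasmic reticulum, went from 1091 and 1079 CPM in PBS to 3514 and 4279 in LD-F1 and 3392 and 3443 in LD-F1_b, a log2 rise of 1.84 ± 0.10 (adjusted p = 2.78e-07) and 1.65 ± 0.10 (1.47e-06). Pdia3, the disulfide isomerase paired with tapasin, rose by 0.89 ± 0.10 with LD-F1 and 0.80 ± 0.10 with LD-F1_b. Calr (calreticulin), which holds the heavy chain during loading, rose by 0.86 ± 0.08 in each. These 3 passed under all 13 alternatives in both comparisons. Tapbpl, a relative of tapasin that edits peptides, rose by 0.53 ± 0.16 with LD-F1 (adjusted p = 0.0389) and passed in 5 of 13 alternatives, losing the call without either PBS library (0.294 and 0.11), either LD-F1_b library (0.073 and 0.0729) or LD-F1 replicate 1 (0.129).

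Among proteasome genes outside the immunoproteasome, the standard subunits Psmb6 and Psmb7 rose with LD-F1, by 0.60 ± 0.10 (adjusted p = 0.000883) and 0.28 ± 0.09 (0.0484), the second of which passed in only 3 of 13 alternatives. Of 9 activators and assembly factors, 3 rose with LD-F1 (median of the 9 0.20). Psme2, a subunit of the interferon-inducible PA28 activator, was at 51.9 and 82.6 CPM in LD-F1, 59.5 and 52.3 in LD-F1_b and 33.9 and 41.1 in PBS, a log2 rise of 0.84 ± 0.19 with LD-F1 (adjusted p = 0.0123; 0.0977 without PBS replicate 1). Its partner Psme1 rose by 0.35 ± 0.11 (adjusted p = 0.044) and the assembly chaperone Pomp by 0.35 ± 0.10 (0.0271). Psme1 passed in 4 and Pomp in 7 of the 13 alternatives. Both lost the call without either PBS or either LD-F1_b library, with library totals and with only the groups compared. Psme1 also lost it in DESeq2, with the replicate block and without LD-F1 replicate 2. None of the 3 passed without PBS replicate 1. With LD-F1_b no activator or assembly factor passed in edgeR with all 6 libraries and TMM scaling, with 3 of 9 at an unadjusted p under 0.05. There 1 rose in DESeq2, with no filter and with the replicate block, 2 with the length trend, and 3 without either LD-F1 library or with only the groups compared.

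The peptide-trimming enzymes had a median log2 fold change of 0.11 with LD-F1 and 0.02 with LD-F1_b over 7 tested. Lnpep, an endosomal aminopeptidase used in cross-presentation, was lower with LD-F1_b by -0.53 ± 0.15 (adjusted p = 0.044), a call lost when a library of either group was left out (0.144 to 0.338). With LD-F1 no trimming enzyme passed in edgeR with all 6 libraries and TMM scaling (1 at an unadjusted p under 0.05) or in DESeq2, whereas the length trend gave 2 higher and leaving out LD-F1 replicate 1 gave 2 higher and 1 lower.

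Of 16 other class I heavy chain names, 8 have an entry and 4 were tested, and all 4 were called with LD-F1. H2-M3, which presents formylated peptides, rose from 11.1 and 12.5 CPM in PBS to 17.5 and 17.5 in LD-F1 (log2 0.57 ± 0.16, adjusted p = 0.0215). H2-T24 rose by 0.90 ± 0.28 (adjusted p = 0.0376) and H2-M2 by 2.02 ± 0.57 (0.0254), the latter from 6 and 9 counts to 34 and 20. Mr1, which presents microbial vitamin B metabolites to MAIT cells, fell from 53 and 41 counts in PBS to 12 and 20 in LD-F1 (log2 -1.37 ± 0.40, adjusted p = 0.03). All 4 were lost without PBS replicate 2 (adjusted p = 0.0707 to 0.262), and H2-M3, Mr1 and H2-M2 without PBS replicate 1 (0.215, 0.236 and 0.225). H2-M2, H2-T24 and Mr1 were also lost without LD-F1 replicate 1 (0.0814 to 0.2) and without either LD-F1_b library (0.0534 to 0.0721), and H2-T24 and Mr1 with only the groups compared (0.0799 and 0.0571), and H2-T24 with library totals (0.0611). In LD-F1_b none passed in edgeR or DESeq2, with 1 of 4 at an unadjusted p under 0.05.

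Interferon signalling genes and transcription factors of class I genes included 14 of 29 that rose with LD-F1 and 8 that rose with LD-F1_b. With LD-F1 the count was 14 without LD-F1 replicate 1, 13 without replicate 2 and 10 without either PBS library, and with LD-F1_b it ranged from 3 without LD-F1_b replicate 2 to 15 without an LD-F1 library. Irf7, which drives type I interferon genes, was at 99.1 and 90.5 CPM in LD-F1, 50.5 and 51.8 in LD-F1_b and 26.9 and 26.6 in PBS. Usp18, an interferon-induced brake on the receptor, was at 86.8 and 86.3, 40.3 and 39.9, and 27.7 and 21.1 CPM in the same order. For both genes the 3 groups were apart, and both rose with LD-F1 (log2 1.82 ± 0.10 and 1.83 ± 0.13) and with LD-F1_b (0.93 ± 0.10 and 0.72 ± 0.13). The Usp18 rise with LD-F1_b was lost without either LD-F1_b library or PBS replicate 2 (adjusted p = 0.0605 to 0.0896).

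Irf7 and Usp18 were the 2 list genes that differed between the EVs of the 2 strains, lower with LD-F1_b by -0.89 ± 0.10 and -1.11 ± 0.12 (adjusted p = 0.00166 for each). Both calls were lost without either LD-F1_b library, where almost no gene of the whole table passed, so that loss is not particular to these genes. Their log2 values there were -0.87 and -0.91 for Irf7 and -1.12 and -1.10 for Usp18. Nfkb2, an NF-kB subunit, rose by 1.10 ± 0.09 with LD-F1 and 0.72 ± 0.09 with LD-F1_b, and Socs1, a feedback inhibitor of interferon signalling, by 2.08 ± 0.59 with LD-F1 from 11 and 6 counts in PBS to 28 and 36 (adjusted p = 0.0252; 0.0772 without LD-F1 replicate 2, and 0.0725 and 0.2 without PBS replicate 1 and 2).

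Irf1, a direct regulator of class I genes, was named after its values were seen. It was at 18.6 and 22.8 CPM in LD-F1, 15.9 and 13.3 in LD-F1_b and 11.6 and 9.76 in PBS, and rose with LD-F1 (log2 0.96 ± 0.17, adjusted p = 0.00198) but missed the threshold with LD-F1_b (0.45 ± 0.18, adjusted p = 0.139), where it passed without LD-F1 replicate 1 (0.0489) or 2 (0.0496). The subunits of the RFX complex that binds class I promoters, Rfx5, Rfxap and Rfxank, had log2 values of -0.02, 0.03 and -0.04 with LD-F1 (adjusted p = 0.96, 0.911 and 0.922), also named after their values were seen. No reads were counted for Ifnb1 or Ifng in any library, which with a floor of 3 counts allows up to 0.225 CPM.

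Genes of MHC class II presentation differed widely in level. Ctss, named after its values were seen, was at 442 and 593 CPM in LD-F1, 524 and 514 in LD-F1_b and 698 and 633 in PBS. It passed in neither EV comparison in edgeR with all 6 libraries and TMM scaling. Ciita, the master regulator of class II genes, had 1 to 4 counts per library, H2-Aa 1 count in all, and H2-Ab1 and H2-Eb1 none. Of 6 tested genes 1, the invariant chain Cd74, rose with LD-F1, by 0.38 ± 0.10 on the log2 scale (adjusted p = 0.0135), from 319 and 314 CPM in PBS to 377 and 448, and the median of the 6 was -0.10. The Cd74 call was lost without PBS replicate 1 or 2 (0.119 and 0.141), with library totals (0.0525) and with only the groups compared (0.0502). In the list 1 gene was called lower with RLE scaling, library totals, no filter, DESeq2, the length trend and without LD-F1 replicate 2. With LD-F1_b none passed in edgeR with all 6 libraries and TMM scaling, with 2 at an unadjusted p under 0.05. There 1 was lower in DESeq2 and with library totals, and 1 was higher and 1 lower with no filter, with the length trend, without either LD-F1 library and with only the groups compared. The summed dendritic cell markers given above moved in the same order as Tap1 over the groups through Xcr1, an order that Zbtb46 did not share. The part of dendritic cells in these differences was not tested.

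**Figure D5:**
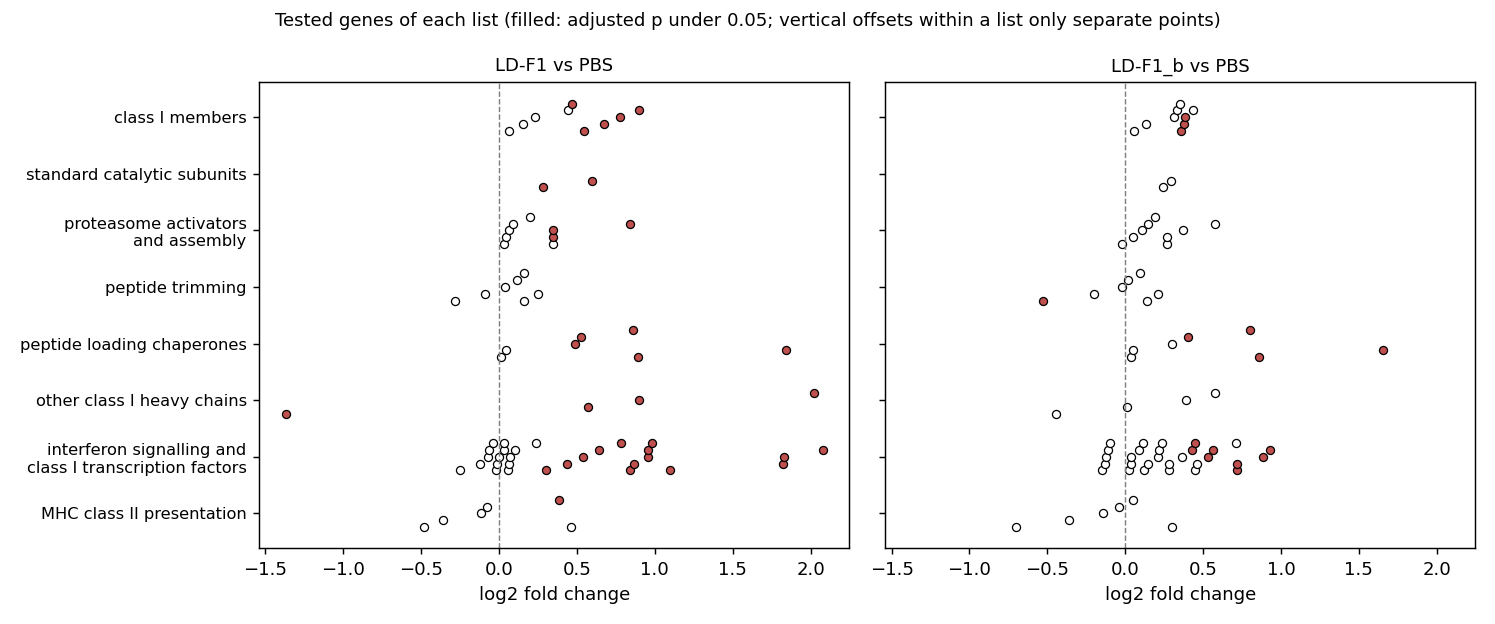
Log2 fold changes against PBS (horizontal axes) of every tested gene of the 9 class I genes and of the 7 further lists, for LD-F1 (left) and LD-F1_b (right); filled points passed at an adjusted p under 0.05. Filled points lie to the right in loading chaperones and interferon signalling, with Hspa5 at 1.84 and 1.65, and the trimming list has 1 filled point, Lnpep at -0.53 with LD-F1_b.

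The genes whose levels followed Tap1 most closely over the 6 libraries were taken by Pearson's r of log2 CPM among 9651 tested genes with a mean of at least 5 CPM. They were Parp9 (0.999), Usp18 (0.998), Etv3 (0.998), Serpinb9b (0.995), Ifit1 (0.995), Isg15 (0.994), Phf11d (0.994) and Dhx58 (0.994). Parp9 stood at 49.8 and 50.1 CPM in LD-F1, 34.8 and 33.3 in LD-F1_b and 28.3 and 25.8 in PBS, in the same order of groups as Tap1. Within the class I genes, Tapbp (0.985), Psmb10 (0.905), H2-K1 (0.904) and B2m (0.852) came nearest to Tap1, and Psmb9 (0.514), Tap2 (0.462), Psmb8 (0.429) and Nlrc5 (0.147) were further off. The 6 points are 3 groups of 2 libraries, so r describes these libraries only.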

How the data were processed

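Poly(A) RNA of 6 libraries was sequenced on an Illumina NovaSeq. The deposited values are whole-number counts of reads per gene, not normalised; the authors counted them with featureCounts 1.5.0-p3 after fastp, HISAT2 2.0.5 and StringTie 1.3.3b, per the submitters' processing notes, which name the build GRCm39. The gene identifiers are those of the C57BL/6NJ annotation with 876 loci assembled from the reads, and positions are printed as deposited. Without molecular identifiers, the floor of 3 counts reflects counting error alone.

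Counts were fitted with edgeR 4.0.16 (R 4.3.3) by the quasi-likelihood test, with filterByExpr, TMM scaling, all 6 libraries in 1 fit (3 residual degrees of freedom), no replicate block, and Benjamini-Hochberg adjustment over 12740 genes. The script was tested on simulated data. Alternatives were other scaling, no filter, DESeq2 1.42.0, a replicate block, a trend on gene length, only the groups compared, and each library left out. Every member was described; from each further list up to 4 called genes of largest change were named. The members and lists were chosen with earlier results of these data known. Promoter sequences came from RefSeq (GRCm38.p6), matched by symbol, and no positions were converted between builds. Some genes of the further lists are not reported here by name.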

Additional observations from a re-analysis of the deposited data

Results flagged for a closer look

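The difference of Tap1 between the EVs of the 2 strains drew attention because a test of that difference passed: the log2 fold change of LD-F1_b against LD-F1 was -0.57, with 4 of 4 EV libraries in that order (58.8 and 57.3 CPM with LD-F1, 39.6 and 38.8 with LD-F1_b). The adjusted p was 0.0413 by edgeR's quasi-likelihood test and ran from 0.00135 to 0.558 over the 13 alternatives.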

How the results depend on the processing

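With LD-F1 against PBS, 4 to 8 of the 9 class I genes and 16 to 30 of the 64 list genes passed when 1 library was left out (5 and 29 with all 6), the 8 without LD-F1 replicate 1 and the 16 without either PBS library. With LD-F1_b against PBS these ranges were 0 to 7 and 6 to 29 (3 and 13 with all 6). Fitting only the groups compared gave 7 and 28, with 3098 of 12514 tested genes called, against 1398 of 12740 with all 6 libraries. The length trend gave 24 list genes. Between the EVs, where 1 class I gene and 2 list genes passed, the ranges were 0 to 4 and 0 to 11; the class I count was 0 with library totals, 0 with the replicate block, 0 with only the groups compared, and 2 with no filter, with DESeq2 and with the length trend, and no filter gave 4 list genes. The number of genes called over the whole table shifted too. In every comparison it rose without LD-F1 replicate 1 and fell without either PBS library, so these shifts are not particular to the class I or list genes. Some of these fits use fewer libraries, and the cause of the shifts was not tested.

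The values that changed sign had not passed with all 6 libraries, and Psmb8 passed without LD-F1 replicate 1 with LD-F1 against PBS (0.32, adjusted p = 0.0146). Library totals turned Nlrc5 (LD-F1 against PBS) to -0.043, Psmb8 (LD-F1_b against PBS) to -0.015 and Psmb9 (LD-F1_b against LD-F1) to 0.022, and the replicate block turned Psmb9 in that last comparison to 0.0061. With 1 library left out, Psmb8 and Nlrc5 ranged from -0.039 to 0.32 and from -0.13 to 0.22 with LD-F1 against PBS, and Psmb8 from -0.019 to 0.13 with LD-F1_b against PBS. Between the EVs Tap2 ranged from -0.052 to 0.23, Psmb8 from -0.27 to 0.10, Psmb9 from -0.28 to 0.32 and Nlrc5 from -0.090 to 0.25.

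Library totals moved the median log2 fold change of all genes from 0.0057 to -0.099 with LD-F1 and the share of calls that were higher from 53.5% to 33.6%, and the length trend moved them to 0.10 and 72.2%. With LD-F1_b the share went from 58.7% to 41.7% and 73.5%. The replicate numbers are not stated to pair the libraries, and deviations of same-numbered libraries correlated at 0.133 (LD-F1 with LD-F1_b), -0.0189 (LD-F1 with PBS) and -0.0424 (LD-F1_b with PBS). The block left 5 and 3 class I calls against PBS.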
